A study of Mus musculus with 6 samples.

Results

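Wnt pathway genes were examined in the retinas of OC1-KO embryos, which lack the transcription factor Onecut1, and of WT embryos. The 44 genes were chosen by name: 9 Wnt ligands, 10 Frizzled receptors, 2 co-receptors, 7 secreted inhibitors, 3 R-spondins, 9 cytoplasmic transducers and 4 nuclear effectors. Each was read from the brightest probe set that maps to that gene alone, a probe set being the group of array probes summarised as 1 signal. Such a probe set was found for 43 of the 44, the exception being Tcf7. Of these, 27 had a mean log2 signal over 7 in OC1-KO or in WT, the filter of the study's methods, and 16 lay below it. Over all probe sets that map to 1 gene, 10529 genes had 1 or more past that filter.

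The arrays came from 3 OC1-KO and 3 WT embryos, 1 Affymetrix array per embryo, with the embryos of each genotype numbered 1 to 3. The sample labels give the stage as E14, and the title of the series gives E14.5. Both genotypes came from 1 line on a mixed background, made in R1 embryonic stem cells, carried in a "Swiss" strain and then crossed to C57Bl/6 for a few generations, and littermates were taken. The Onecut1 allele is a germ-line one, so its loss was not limited to the retina. Each sample was whole retina, in which fewer cells of a type and less RNA per cell cannot be told apart.

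In the canonical branch of the pathway a secreted Wnt protein binds a Frizzled receptor together with Lrp5 or Lrp6. Dishevelled then holds back a complex of Axin, Apc and Gsk3b, which otherwise marks beta-catenin for destruction, and beta-catenin enters the nucleus to act with Lef1 and the Tcf factors. In the mouse eye this branch is known for its part in the ciliary margin and the pigment epithelium, at the rim of and behind the neural retina, while other Frizzled branches guide axons and orient cells.

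The arrays had median signals of 85.0 to 104.1, and 43.4% to 46.7% of their probe sets lay over a log2 signal of 7. The brightest probe set of Onecut1 itself read 8.31 to 9.67 (log2) in OC1-KO, against 8.76 to 9.25 in WT. The sources used here do not place that probe set relative to the disruption, so it does not check the genotype. Summed signals of the neural progenitor markers were 67218 to 84708 in OC1-KO and 61959 to 86855 in WT. Ciliary margin markers summed to 7857, 8389 and 19040 in OC1-KO embryos 1 to 3, against 7363, 8197 and 13101 in WT, with 8 of 9 markers higher in OC1-KO by their means and a median log2 difference of 0.31. Pigment epithelium markers summed to 629, 755 and 2356 in OC1-KO, against 459, 459 and 1012 in WT, with 8 of 9 higher and a median of 0.72. Only 3 of these 9 passed the filter, against 8 of the 9 ciliary margin markers. Mitf is on both lists, so the 2 counts are not separate. Over all probe sets kept, 9968 of 20888 were higher in OC1-KO. The part of these tissues in the genotype values of Wnt pathway genes was not tested. The arrays of the embryos numbered 3, 1 of each genotype, stood apart: their 9 lens markers summed to 10691 (OC1-KO) and 20590 (WT), against 243 to 423 on the other 4 arrays, and their red blood cell markers, 5 of 7 measured, to 23775 (OC1-KO) and 16423 (WT), against 64 to 728.

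Wnt pathway genes differed little between the genotypes. Of the 27 genes over the filter, 15 were higher and 12 lower in OC1-KO, by a log2 difference of -0.19 (Dvl2, a Dishevelled) to 0.43 (Wnt7a, a ligand). Their median difference was 0.03, against -0.01 over all 20888 probe sets kept and -0.00 over the brightest probe set of each of 10526 genes, where 5154 were higher and 5372 lower. The median size of the difference, whatever its sign, was 0.08 for the 27 genes and also 0.08 for the brightest probe sets of all genes. The median standard error of a difference was 0.21 (0.15 to 0.46), and most of these differences were smaller than their own standard error.

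By limma, 0 of the 27 had an unadjusted p under 0.05 in either direction, where 0.369% of the 20888 probe sets kept were higher and 0.637% lower at that threshold. The p-values of the 27 ran from 0.198 to 0.994. After Benjamini-Hochberg adjustment over all probe sets kept, 0 of the 27 had a p under 0.05, as did 0% of all probe sets. The methods' t-test, which is two-tailed and unadjusted, gave 0 of the 27, where 0.766% of all were higher and 0.747% lower. With the embryo number as a block, 1 gene, Wnt7a, was higher at an unadjusted p under 0.05 and 0 were lower, where 1.57% of all were higher and 2.81% lower. Wnt7a passed the filter only through OC1-KO, the genotype in which it was higher, so this count is no support for a difference. In that fit 0% of all probe sets had an adjusted p under 0.05.

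**Figure D1:**
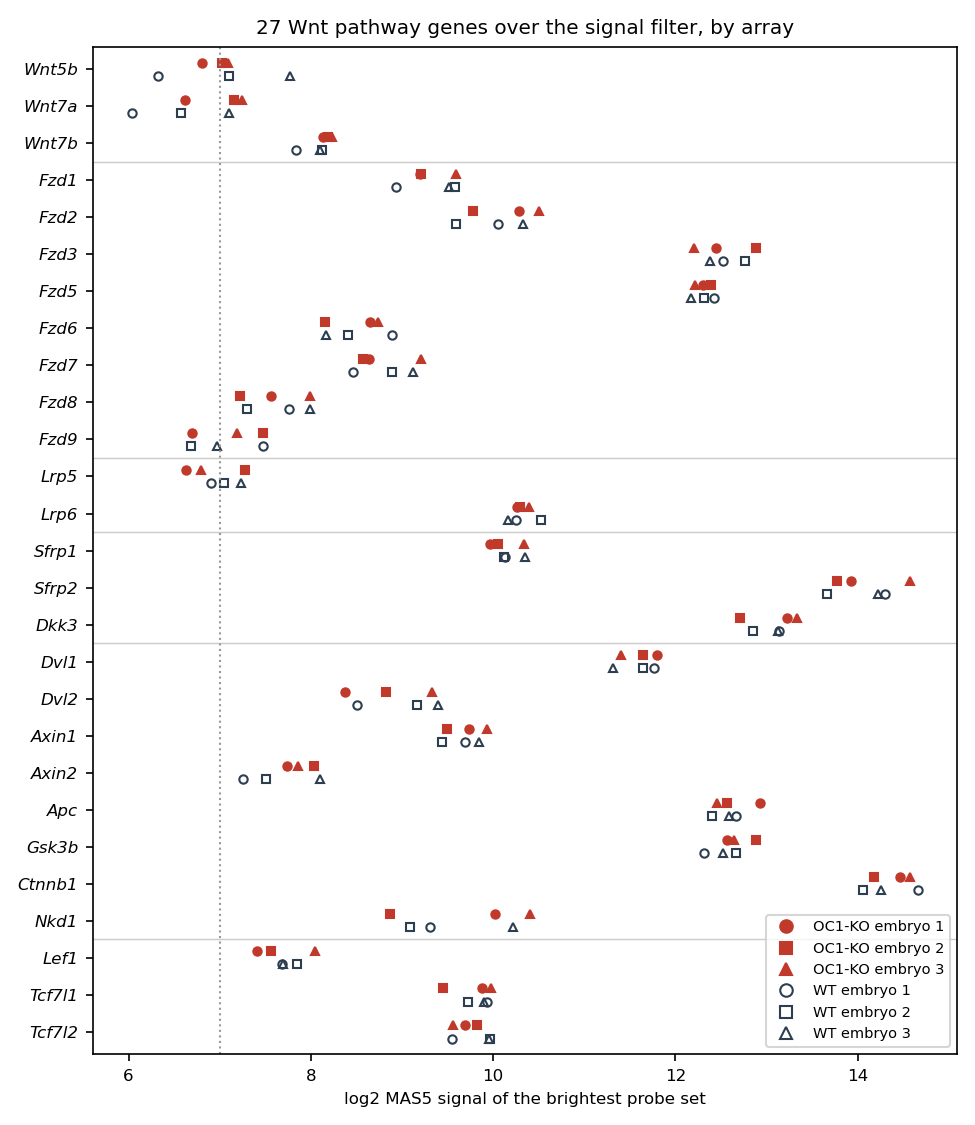
Log2 MAS5 signal (x axis) of the 27 Wnt pathway genes over the filter, 1 row per gene, grouped by role. Filled symbols are OC1-KO embryos and open symbols WT embryos, the shape gives the embryo number, and the dotted line is the filter at 7. The genotypes overlap in every gene but Wnt7b.

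Of the 9 ligands, 3 passed the filter. Wnt7b, a ligand known in the mouse for its part in the regression of the fetal eye vessels, had log2 signals of 8.13, 8.19 and 8.23 in OC1-KO embryos 1 to 3, against 7.84, 8.12 and 8.10 in WT embryos 1 to 3. It was the only one of the 27 genes whose groups did not overlap, higher in OC1-KO, where 1.7% of all probe sets kept were higher without overlap and 1.86% lower. The difference was 0.16 (SE 0.15), with a limma p of 0.306 and an exact two-sided permutation p of 0.1, the smallest that 3 against 3 arrays allow. The lowest OC1-KO array and the highest WT array lay 0.01 apart (8.13 and 8.12).

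Wnt7a, a close relative of Wnt7b, had 6.62, 7.16 and 7.24 in OC1-KO, against 6.04, 6.57 and 7.10 in WT. The groups overlapped, but OC1-KO was the higher in each of the 3 pairs of embryos with the same number, by 0.58, 0.58 and 0.14. The difference was 0.43 (SE 0.31), or 1.35-fold, with a limma p of 0.198 and of 0.0247 with the embryo number as a block (SE 0.14), while the adjusted p was 1.00 without the block and 0.999 with it. The difference was 0.70 without WT 3, with a limma p of 0.0441, and 0.17 without WT 1. Its WT mean was 6.57, below the filter, and with the filter on the mean of all 6 arrays it was left out.

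Wnt5b passed it only through WT (7.06), with 6.98 ± 0.15 in OC1-KO and 7.06 ± 0.72 in WT (SD, n = 3 each). The 6 other ligands, Wnt2b, Wnt3, Wnt3a, Wnt4, Wnt5a and Wnt11, lay below the filter, with single arrays from 1.61 to 7.41 on the log2 scale. Wnt5a, which acts mostly outside the beta-catenin branch, came nearest to it, at 6.95 ± 0.45 in OC1-KO and 6.94 ± 0.31 in WT (SD, n = 3 each).

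The Frizzled proteins are the membrane receptors for Wnt. Of 10 genes 8 passed the filter, 4 higher and 4 lower in OC1-KO, with differences of -0.09 to 0.20. Fzd3, which guides axon tracts in the mouse, had 12.45, 12.89 and 12.20 in OC1-KO, against 12.52, 12.76 and 12.38 in WT, a difference of -0.04 (SE 0.22). In both genotypes embryo 2 was the highest and embryo 3 the lowest.

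Fzd5, a receptor of the early eye field and of retinal progenitors, had 12.30, 12.39 and 12.22 in OC1-KO, against 12.42, 12.31 and 12.17 in WT. Its difference was 0.01 (SE 0.15), among the smallest of the 27 genes. Fzd2 had 10.28, 9.78 and 10.50 in OC1-KO, against 10.05, 9.59 and 10.33 in WT, and was higher in OC1-KO in 3 of 3 pairs, by 0.23, 0.19 and 0.18. The spread by embryo number was larger than these differences, and limma gave 0.20 (SE 0.26).

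Fzd8 had 7.56, 7.22 and 7.99 in OC1-KO, against 7.76, 7.30 and 7.99 in WT. The arrays of 1 number lay closer to each other than to arrays of their own genotype, and the difference was -0.09 (SE 0.26). Fzd1, Fzd6, Fzd7 and Fzd9 differed by -0.01, 0.03, -0.01 and 0.08.

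Fzd4, the receptor for the ligand Norrin in retinal vessels, lay below the filter, as did Fzd10. Fzd4 had 6.60, 6.38 and 6.59 in OC1-KO, against 7.13, 6.91 and 6.78 in WT, without overlap. When all probe sets were fitted, the difference was -0.42 (SE 0.20), with a limma p of 0.0801, an adjusted p of 1.00 and an exact permutation p of 0.1. On the other probe sets of Fzd4, which were dimmer, the genotypes overlapped, with differences of 0.16 (SE 0.52) and -1.37 (SE 1.04). Ndp, which encodes Norrin, was on a list of further pathway genes and is named after its value was seen. It had 7.15, 7.08 and 7.14 in OC1-KO, against 7.18, 7.22 and 7.36 in WT. The difference was -0.13 (SE 0.14), with a limma p of 0.386. Its groups did not overlap, though 7.15 and 7.18 lay close, and 1.86% of all probe sets kept were lower without overlap. That share was not counted for probe sets below the filter, such as those of Fzd4. The summed endothelial markers were 1632 to 2515 in OC1-KO and 1586 to 2290 in WT, and their part in the Fzd4 and Ndp values was not tested. Of these 8 markers 2 passed the filter, and Kdr was by far the brightest, so the sum mostly reads that gene.

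Lrp5 and Lrp6 are the co-receptors that join Frizzled in the canonical branch. Lrp6 had 10.26, 10.29 and 10.39 in OC1-KO, against 10.25, 10.53 and 10.16 in WT, a difference of -0.00 (SE 0.16) that was the smallest of the 27. Lrp5, with a role in retinal vessels beside Fzd4, had a mean of 6.90 ± 0.34 in OC1-KO and 7.06 ± 0.16 in WT (SD, n = 3 each) and passed the filter through WT alone.

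Of the 7 secreted inhibitors 3 passed the filter. Sfrp2, a Frizzled-related protein that binds Wnt, had 13.93, 13.77 and 14.58 in OC1-KO, against 14.30, 13.66 and 14.22 in WT, a difference of 0.03 (SE 0.27). Sfrp1, of the same family, was lower in OC1-KO in 3 of 3 pairs, with differences of -0.15, -0.07 and -0.01. Its means were 10.12 ± 0.19 in OC1-KO and 10.20 ± 0.13 in WT (SD, n = 3 each). None of its other kept probe sets was lower in 3 of 3 pairs. Dkk3, a divergent Dickkopf protein, differed by 0.05 (SE 0.21). None of these 3 differences exceeded its standard error.

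Dkk1, Dkk2, Sfrp5 and Wif1 lay below the filter. Dkk1 binds Lrp6 and blocks it, and had 5.45, 5.58 and 7.19 in OC1-KO, against 5.43, 5.35 and 6.33 in WT. Its differences within pairs were 0.02, 0.23 and 0.85, so that most of its mean difference of 0.37 (SE 0.56) lay with the arrays numbered 3. The Dkk1 promoter is printed because its 250 bases before the start site hold the core CTTTGA, read by Lef1 and the Tcf factors, at 2 places (bases -174 to -169 on the opposite strand, as TCAAAG, and -117 to -112). Of the promoters found for these genes, that of Lef1 also held it at 2 places, as did 1.37% of all promoters. It lies at chr19:30549497-30549746 on the minus strand of GRCm38.p6, from RefSeq, and capitals mark the cores.
Dkk1 promoter: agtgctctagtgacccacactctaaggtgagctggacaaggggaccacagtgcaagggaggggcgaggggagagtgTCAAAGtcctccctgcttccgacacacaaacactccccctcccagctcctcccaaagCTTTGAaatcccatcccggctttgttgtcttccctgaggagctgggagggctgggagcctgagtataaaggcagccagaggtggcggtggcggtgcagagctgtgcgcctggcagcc

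Promoters of that length were found for 30 of the 44 genes, 39 in all, since some genes have several start sites. The core stood on either strand in 6 of the 39 (15.4%), those of Dkk1, Fzd1, Gsk3b, Lef1, Wnt5b and Wnt11, against 13.8% of 32851 promoters. The share of Wnt pathway promoters with it was thus close to that of all promoters, and a match is a run of letters, not a bound site.

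The R-spondins are secreted proteins that strengthen Wnt signals, and 0 of 3 passed the filter. Rspo2 had 4.90, 4.37 and 4.21 in OC1-KO, against 5.23, 4.98 and 5.25 in WT, lower in OC1-KO without overlap. Fitted with all probe sets the difference was -0.66 (SE 0.25), with a limma p of 0.0421, an adjusted p of 1.00 and an exact permutation p of 0.1. On the other Rspo2 probe set, also below the filter, the genotypes overlapped, with a difference of -0.40 (SE 1.78). Rspo4, which was on the list of further genes and is named after its value was seen, had 2.36, 3.38 and 2.72 in OC1-KO, against 4.20, 3.98 and 4.98 in WT, a difference of -1.57 (SE 0.39) with a limma p of 0.00823 and an adjusted p of 1.00. Rspo1 and Rspo3 differed by 0.05 and -0.25 with standard errors of 1.40 and 0.78. On the brightest probe set of each of these genes the signals were at most 5.25 and below the filter.

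Of the 9 cytoplasmic transducers 8 passed the filter, 7 higher and 1 lower in OC1-KO, with a median difference of 0.09. These directions are of the brightest probe sets. Apc, Dvl1, Gsk3b and Nkd1 each had another kept probe set that was lower, while those of Axin1 and Ctnnb1 were higher. Dvl1 and Gsk3b changed sign with the mean of a gene's kept probe sets. Ctnnb1, which encodes beta-catenin, had 14.46, 14.18 and 14.57 in OC1-KO, against 14.66, 14.06 and 14.26 in WT, a difference of 0.08 (SE 0.21). Gsk3b, the kinase that marks beta-catenin, had 12.57, 12.89 and 12.64 in OC1-KO, against 12.31, 12.67 and 12.52 in WT. It was higher in OC1-KO in 3 of 3 pairs, by 0.26, 0.21 and 0.12, and the difference was 0.20 (SE 0.17), with a limma p of 0.278.

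Apc, the scaffold of the destruction complex, had 12.93, 12.57 and 12.46 in OC1-KO, against 12.67, 12.40 and 12.59 in WT, a difference of 0.10 (SE 0.18). Dvl2, a Dishevelled, had 8.37, 8.82 and 9.33 in OC1-KO, against 8.51, 9.17 and 9.40 in WT. It was lower in OC1-KO in 3 of 3 pairs, with differences of -0.14, -0.36 and -0.07, while embryos 1 and 3 differed by more than this within each genotype. Nkd1, which binds Dishevelled and dampens the pathway, had 10.02, 8.87 and 10.41 in OC1-KO, against 9.31, 9.09 and 10.22 in WT, with the largest standard error of the 27 (0.46).

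Axin2, a scaffold that is itself a target of beta-catenin, had 7.74, 8.03 and 7.86 in OC1-KO, against 7.26, 7.51 and 8.10 in WT, and its values are given after they were seen. Pairs 1 and 2 were higher in OC1-KO by 0.48 and 0.52, and pair 3 differed by -0.24. The difference was 0.25 (SE 0.24), with a limma p of 0.322. It was 0.49 without WT 3, with a limma p of 0.0404, and 0.07 without WT 1. The other Axin2 probe set, which was dimmer and below the filter, went the other way. It was lower in OC1-KO in 3 of 3 pairs, with a difference of -1.11 (SE 0.80) and overlapping groups. The Axin2 promoter is printed because it holds a core of the Onecut binding site, ATTGAT or ATTGAC on either strand, at bases -172 to -167, as ATCAAT. It lies at chr11:108920099-108920348 on the plus strand of GRCm38.p6, from RefSeq, and capitals mark the core.
Axin2 promoter: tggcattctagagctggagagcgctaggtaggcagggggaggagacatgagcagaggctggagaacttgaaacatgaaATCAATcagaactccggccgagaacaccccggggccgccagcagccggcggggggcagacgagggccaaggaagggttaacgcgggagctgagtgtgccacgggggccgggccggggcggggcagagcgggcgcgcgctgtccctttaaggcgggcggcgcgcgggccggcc

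That core was found in 4 of the 39 Wnt pathway promoters (10.3%), those of Axin2, Fzd5, Lef1 and Wnt3, against 11.6% of 32851 promoters. Of these 4 genes Axin2 differed by 0.25 (SE 0.24), Fzd5 by 0.01 (SE 0.15) and Lef1 by -0.07 (SE 0.20), while Wnt3 lay below the filter. On these probe sets 0 of them had a limma p under 0.05. The other kept probe set of Fzd5 differed by -0.26 (SE 0.19). Axin1 differed by 0.06 and Dvl1 by 0.04, both higher in 3 of 3 pairs, and Dvl3 lay below the filter.

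In all, 6 of the 27 genes were higher in OC1-KO in 3 of 3 pairs (22.2%), namely Wnt7a, Wnt7b, Fzd2, Dvl1, Axin1 and Gsk3b, and 2 were lower in 3 of 3, Dvl2 and Sfrp1 (7.41%). Over all probe sets kept the shares were 10.3% higher and 13.1% lower. The 6 genes differed by 0.04 to 0.43 on the log2 scale. Wnt7a is counted among them though it passed the filter through OC1-KO alone. Other kept probe sets of Dvl1, Axin1 and Gsk3b were not higher in 3 of 3 pairs, and those of Fzd2 were split. Those of Sfrp1 were not lower in 3 of 3 pairs. The shares of all are over every kept probe set, while the 27 genes are read from their brightest. Whether 22.2% exceeds the share in other lists of genes was not tested.

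All 3 nuclear effectors with a probe set of their own passed the filter, and all were lower in OC1-KO, with differences of -0.14 to -0.07. Tcf7l2, a partner of beta-catenin on DNA, had 9.69, 9.82 and 9.56 in OC1-KO, against 9.55, 9.97 and 9.96 in WT, a difference of -0.14 (SE 0.18) with a limma p of 0.469. Tcf7l1, which mostly represses Wnt targets, had 9.88, 9.45 and 9.98 in OC1-KO, against 9.93, 9.72 and 9.90 in WT, a difference of -0.08 (SE 0.19). Lef1 differed by -0.07 (SE 0.20). Each of the 3 genes was higher in OC1-KO in 1 of the 3 pairs, so on these probe sets the direction of the means did not hold in every pair. The other kept probe set of Tcf7l1 was lower in OC1-KO in 3 of 3 pairs, with a mean difference of -0.15, as was that of Tcf7l2, with -0.38.

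**Figure D2:**
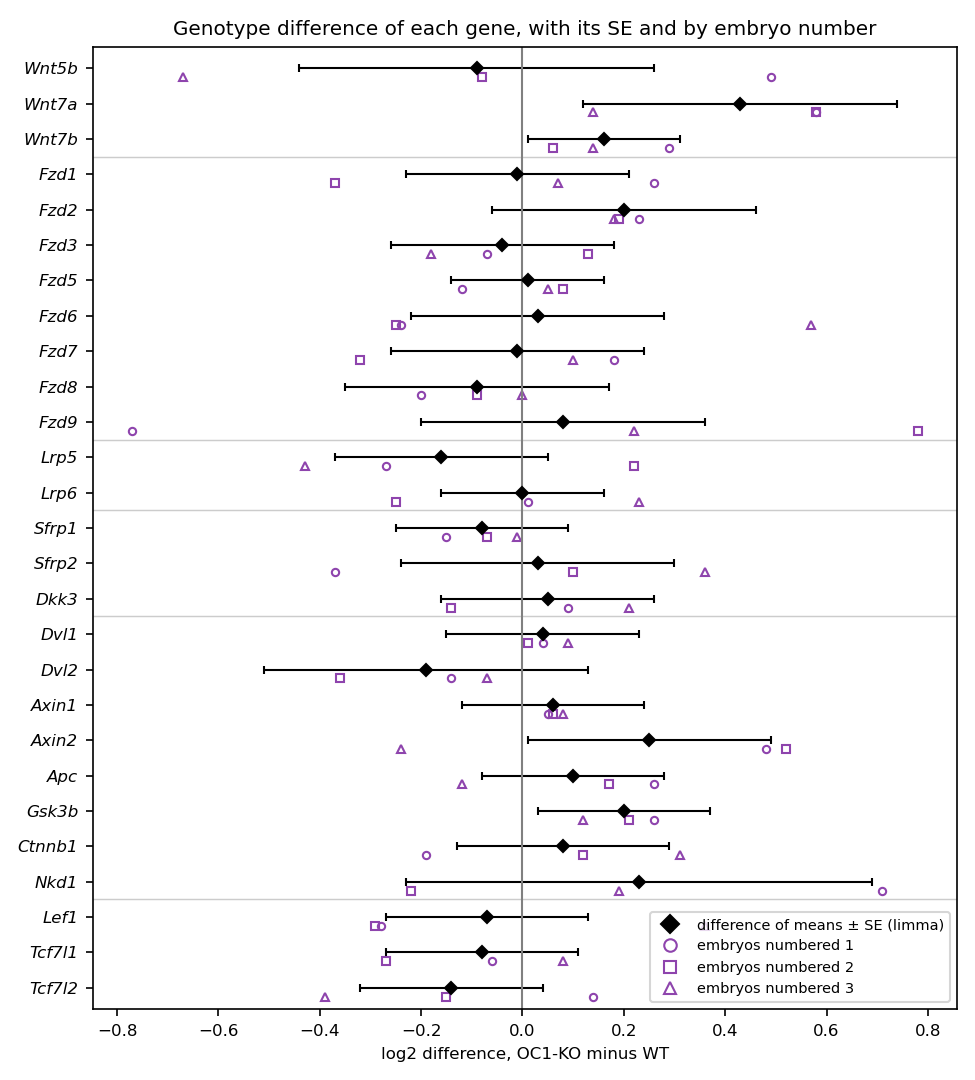
Log2 difference, OC1-KO minus WT (x axis), of the 27 Wnt pathway genes, 1 row per gene. Diamonds with bars are the difference of the means with its standard error from limma (n = 3 each), and open symbols are the 3 pairs of embryos with the same number. The bars of most genes cross 0, and the pairs lie on both sides of 0 in all genes but the 6 higher and 2 lower ones named in the text and Fzd8, whose pair 3 is at 0.00.

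Several probe sets of 1 gene did not always give the same answer. Of the 27 genes 14 had several kept probe sets, which shared a direction in 7 genes and differed in 7. Among all 54 kept probe sets of Wnt pathway genes, 3 were higher without overlap (5.56%) and 1 was lower (1.85%), against 1.7% and 1.86% of all probe sets kept. The lower one belongs to Fzd5, with a mean of 7.65 in OC1-KO, against 7.92 in WT.

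On the dimmest of the 3 kept Apc probe sets the signals were 8.20, 8.06 and 8.04 in OC1-KO, against 7.58, 7.68 and 7.75 in WT. The difference was 0.43 (SE 0.14), or 1.35-fold, with a limma p of 0.0178, a p of 0.015 with the block and an adjusted p of 1.00. The one between in brightness gave -0.17 and the brightest 0.10, so the 3 Apc probe sets did not share a direction. Without 1 array the limma p of the dimmest ran from 0.0286 to 0.0643, and it was over 0.05 without OC1-KO 1 and without WT 1. It was also over 0.05 without a filter (0.0522) and with an intensity trend (0.0569).

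Ctnnb1, whose further probe sets were described after their values were seen, also had 3, all higher in OC1-KO, by 0.08 on the brightest, 0.24 on the next and 0.38 (SE 0.15) on the dimmest. On the dimmest the signals were 10.18, 9.96 and 10.03 in OC1-KO, against 9.76, 9.77 and 9.53 in WT, without overlap, with a limma p of 0.0412 and an adjusted p of 1.00. The p did not hold without any 1 of the 6 arrays (0.0573 to 0.132). The parts of the Apc and Ctnnb1 transcripts that these probe sets read were not analysed here. Ctnnb1 lies on chromosome 9, as does Onecut1. Whether the strain of that chromosome near Ctnnb1 differed between the genotypes was not tested.

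**Figure D3:**
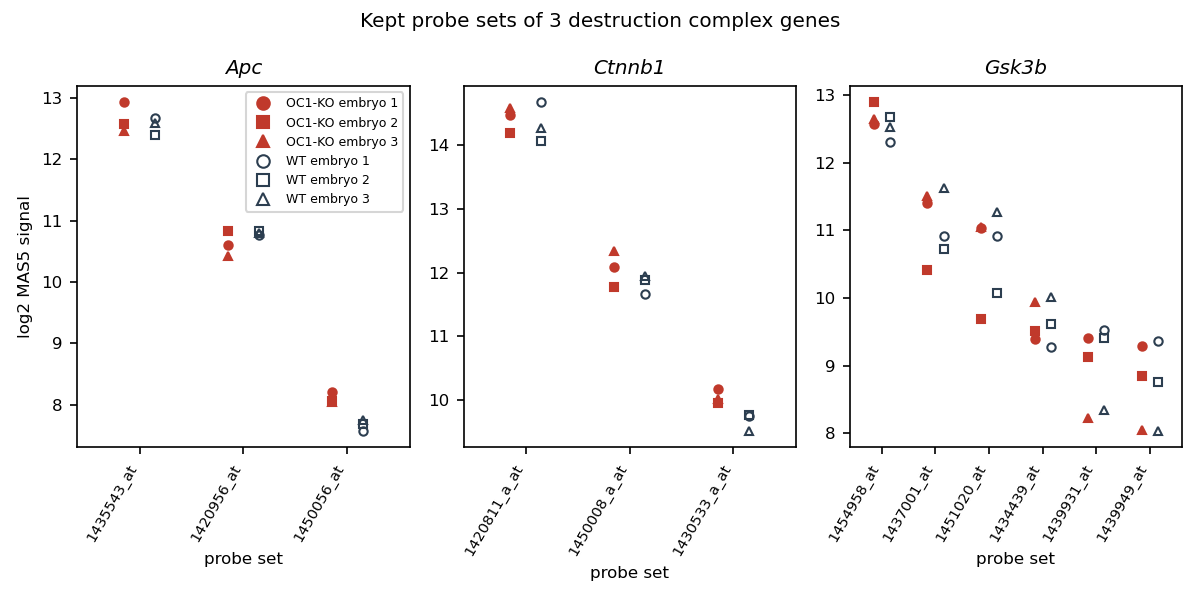
Log2 MAS5 signal (y axis) on each kept probe set (x axis, brightest first) of Apc, Ctnnb1 and Gsk3b, 1 point per array, OC1-KO filled and left of WT open, with the shape for the embryo number. The genotypes separate only on the dimmest probe sets of Apc and Ctnnb1, and in Gsk3b the arrays numbered 3 are low on the dimmest probe set and the next to it in both genotypes.

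Several Wnt pathway genes differed more between the embryo numbers than between the genotypes. A fit with genotype and number gave 7 of the 27 genes an unadjusted p under 0.05 for the number by limma's moderated F-test (25.9%, against 31.9% of all probe sets kept), and 0 an adjusted p under 0.05, where 5.32% of all had one. The 7 were Dvl2, Fzd2, Nkd1, Fzd8, Wnt7a, Fzd3 and Fzd7, with adjusted p-values from 0.0525 (Dvl2) to 0.136 (Fzd7). The share of Wnt pathway genes was thus no larger than that of all probe sets.

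The direction was more often upward in the embryos numbered 3. In 7 of the 27 genes both arrays numbered 3 lay above the other 4 (25.9%), against 14.9% of all probe sets kept, and in 3 both lay below (11.1%), against 23.5%. The 7 were Fzd2, Fzd7, Fzd8, Sfrp1, Dvl2, Axin1 and Nkd1, and the 3 were Fzd3, Fzd5 and Dvl1. The median of the mean of the arrays numbered 3 minus that of the arrays numbered 1 and 2 was 0.25 over the 27 genes, against -0.04 over all probe sets kept and -0.03 over the brightest probe set of each gene. Whether this difference exceeds that of other lists of 27 genes was not tested.

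Nkd1 had the largest such difference among the 27, with means of 9.66 and 8.98 in embryos 1 and 2 and of 10.32 in embryos 3, or 1.00 above the other numbers. Dvl2 was 0.65 above, Fzd8 0.53, Fzd7 0.52, Fzd2 0.49, Axin1 0.30 and Sfrp1 0.28. Fzd3 and Dvl1 differed by -0.36 each and Fzd5 by -0.16. The genotypes also differed within some of these pairs, by 0.71 in pair 1 of Nkd1 and by -0.32 in pair 2 of Fzd7.

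Among the 16 genes below the filter, Dkk1 was 1.31 above in the embryos numbered 3, Dkk2 2.89, Wif1 1.05 and Fzd10 0.48. Both arrays were above the other 4 in each. Wnt3 differed by -2.12, with both arrays under the other 4. These 5 were named after their values were seen, and their adjusted p for the number ran from 0.352 to 0.445 in the fit of all probe sets. Their signals were low, with single arrays of 1.48 to 5.77 for Dkk2 and 1.61 to 4.33 for Wnt3. The share of all probe sets below the filter with such a pattern was not counted.

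Gsk3b, singled out after its values were seen, did not show the same pattern by embryo number on its 6 kept probe sets. On the next to dimmest the arrays numbered 3 read 8.23 (OC1-KO) and 8.34 (WT), against 9.12 to 9.52 on the other 4, and on the dimmest 8.05 (OC1-KO) and 8.04 (WT), against 8.75 to 9.37. On the third in brightness they read 11.05 (OC1-KO) and 11.27 (WT), near embryos 1 at 11.03 (OC1-KO) and 10.92 (WT). There the embryos numbered 2 stood apart, at 9.69 (OC1-KO) and 10.08 (WT). These 3 had an adjusted p under 0.05 for the number (limma's F-test, 0.0399, 0.0399 and 0.042), 5.56% of the 54 kept probe sets of Wnt pathway genes, against 5.32% of all, a share near the background. The brightest differed by -0.03. The genotype difference on the 3 was -0.17, 0.01 and -0.16.

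Markers of other tissues moved with the same arrays. The 9 ciliary margin markers summed to 19040 (OC1-KO) and 13101 (WT) on the arrays numbered 3, against 7363 to 8389 on the other 4, and both arrays were above the others in 9 of 9. The 9 pigment epithelium markers, 3 of them over the filter, summed to 2356 (OC1-KO) and 1012 (WT), against 459 to 755, and were above in 7 of 9. Periocular mesenchyme markers, 8 of 9 measured, summed to 2418 (OC1-KO) and 2854 (WT), against 446 to 684, and were above in 6 of 8, as were the lens markers in 8 of 9 and the red blood cell markers in 4 of 5. Neural progenitor markers summed to 84708 (OC1-KO) and 72035 (WT), against 61959 to 86855, and were above in 3 of 8. The sum of the endothelial markers was lower, at 1632 (OC1-KO) and 1586 (WT), against 1696 to 2515, and they were above in 1 of 8. Only 2 of the 8 passed the filter, and they went in opposite directions. Kdr, by far the brightest, had log2 signals of 10.24 (OC1-KO) and 10.13 (WT), against 10.33 to 11.10 on the other 4. Cldn5 had 8.13 (OC1-KO) and 8.22 (WT), against 7.40 to 7.89. Optic stalk and immune markers lay within the range of the other arrays, at 1749 (OC1-KO) and 1893 (WT) against 1256 to 2064 and at 1022 (OC1-KO) and 974 (WT) against 827 to 1042. The part of these tissues in the Wnt pathway values was not tested.

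**Figure D4:**
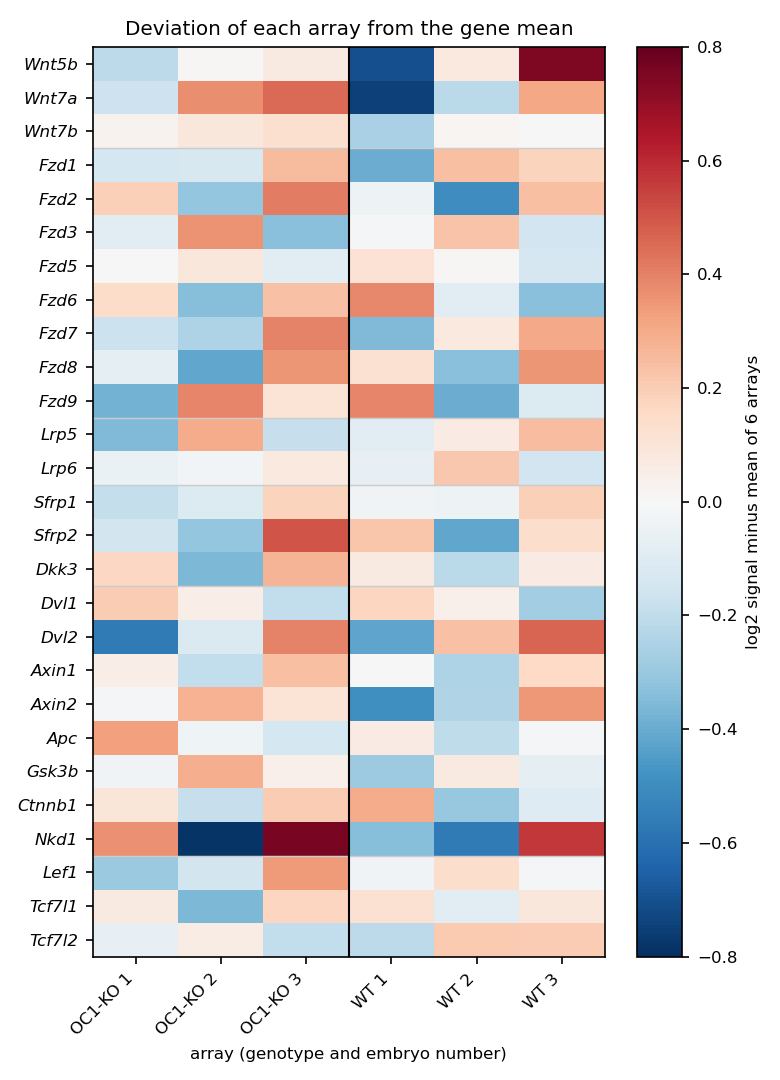
Log2 signal of each array minus the mean of the 6 arrays (colour scale), for the 27 Wnt pathway genes in rows and the arrays in columns, OC1-KO left of WT. The columns OC1-KO 3 and WT 3 share their colour in Fzd2, Fzd7, Fzd8, Dvl2 and Nkd1, which lie above their mean there.

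In the embryos numbered 1 and 2 alone, 12 of the 27 genes were higher and 15 lower in OC1-KO, with a median difference of -0.02 and limma p-values of 0.0552 to 0.99. Wnt7a differed there by 0.58 (SE 0.29), Axin2 by 0.50 (SE 0.20), Fzd2 by 0.21 (SE 0.27) and Nkd1 by 0.25 (SE 0.41). Wnt5b differed by 0.21, against -0.09 in all 6 arrays, and Fzd6 by -0.24, against 0.03. With 1 array left out the sign of the difference changed in 20 of the 27 genes.

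Further genes of the pathway gave a like picture. A list of 70 others held ligands, receptors, secretion and inhibitor genes, transducers, nuclear partners and planar cell polarity genes, of which 69 had a probe set of their own and 42 passed the filter. Of the 42, 20 were higher and 22 lower in OC1-KO, with a median difference of -0.02 and a range of -0.49 to 0.38. The limma p ran from 0.197 to 0.944, so 0 passed at an unadjusted p under 0.05 in either direction, and 0 did so by the methods' t-test or with the block.

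Of the 42, 1 was higher and 1, Ndp, lower in OC1-KO without overlap, where 1.7% of all probe sets kept were higher and 1.86% lower. Tle3, a co-repressor bound by Tcf factors, had 10.73, 10.66 and 10.86 in OC1-KO, against 10.44, 10.54 and 10.65 in WT, a difference of 0.21 (SE 0.14) with a limma p of 0.197 and an exact permutation p of 0.1. Both genes were named after their values were seen. Of the 9 planar cell polarity genes kept, 5 were higher and 4 lower, and of the 8 nuclear partners 3 were higher and 5 lower.

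By embryo number, 13 of the 42 had an unadjusted p under 0.05 by limma's F-test (31.0%, against 31.9% of all probe sets kept) and 0 an adjusted one (against 5.32%), so their share was near the background. Both arrays numbered 3 lay above the other 4 in 12 (28.6%, against 14.9%) and below in 4 (9.52%, against 23.5%), and the median of their difference from embryos 1 and 2 was 0.16.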

How the data were processed

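The authors deposited linear MAS5 intensity values, 1 per probe set, and each array had a 2% trimmed mean of 500. Log2 was taken without further scaling. The arrays hold 45101 probe sets, 64 of them controls that were not used, and 20888 had a mean over 7 in OC1-KO or WT. The platform annotation gave the symbols, 34754 of 34958 probe sets with 1 symbol being matched by Entrez ID. The genotypes were compared with limma 3.58.1 (R 4.3.3), using lmFit and eBayes with no trend, adjusted by Benjamini-Hochberg over the probe sets kept. A gene below the filter was fitted with all probe sets.

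The genes, lists and tests were chosen with earlier results of these data known. Values by array were given for genes with an unadjusted p under 0.05 by limma with or without the block or by the methods' t-test, genes without overlap, the brightest of each role, the 6 genes with the smallest p for the embryo number, and Apc, whose kept probe sets differ in direction with 1 of them at an unadjusted p under 0.05. Arrays with the same number correlated at 0.509, 0.575 and 0.671 after removal of genotype means, so the number was taken to pair them. Arrays with different numbers correlated at -0.438 to -0.0371. These add no separate evidence, since removal of the means pushes them down where the same-number values are positive. The pairing rests on the values it was then used on, since the labels state no pairs. The fits were tested on simulated data. Precision is limited by the 3 arrays per genotype. Alternatives were the scaling, an offset of 32, the filter, an intensity trend, the t-test, the block, the probe set rule, each array left out and the embryos numbered 1 and 2 alone. Tables and plots were made with pandas 2.3.3, matplotlib 3.10.9 and Python 3.11.15.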

Additional observations from a re-analysis of the deposited data

How the results depend on the processing

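Leaving out the filter gave 1 Wnt pathway gene (Rspo2) and 1 further gene (Rspo4) lower in OC1-KO at an unadjusted limma p under 0.05, against 0 and 0, where 1.54% of all 45037 probe sets were lower. With the embryo number as a block, 1 gene was higher, Wnt7a, which passed the filter through OC1-KO alone. The block also gave 3 of the 54 kept probe sets of Wnt pathway genes a p under 0.05, against 2 without it, and over all probe sets 327 higher and 586 lower, against 77 and 133. Leaving out 1 array gave 0 to 2 higher, with 2 (Wnt7a and Axin2) without WT 3, the highest WT array in both genes. In that fit 0.642% of all probe sets kept were higher. The other settings left these counts at 0, and the median difference ran from -0.07 (without OC1-KO 3) to 0.09 (without OC1-KO 2). The sign changed under some setting in 21 of the 27 genes, none of them at an unadjusted p under 0.05.

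The count of genes with an adjusted p under 0.05 for the embryo number was 0 in the report (5.32% of all probe sets) and depended on the setting, as did the share of all features called, given in brackets. It was 2 with quantile normalization (5.34%), 6 with arrays centred on their median (18.4%), 3 with 32 added to the signal (9.12%), 1 with the filter on the mean of all arrays (7.15%), 5 with an intensity trend (19.7%), 2 with the mean of a gene's kept probe sets (5.26%), 3 with the number alone (11.3%) and 0 without a filter (0%). Dvl2 was called in each of these but the last. The cause was not tested. The 3 Gsk3b probe sets had an adjusted p over 0.05 without a filter (0.349 to 0.352).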
